A study of Homo sapiens with 12 samples.

Results

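The hypoxia response was examined through 38 genes of the hypoxia-inducible factor (HIF) system, taken by gene name from a table of 22963 named genes and assembled loci. The list held 3 HIF subunits, 4 HIF hydroxylases, the ubiquitin ligase subunit VHL and 30 target and feedback genes, and all 38 were present in the table. The rule uses gene names and no measured value, but the members were chosen with earlier results of these data known. Polyadenylated RNA of 2 human hepatocellular carcinoma cell lines was sequenced in 12 libraries, 3 in each of 4 groups, and each gene's level was deposited as FPKM (fragments per kilobase of transcript, scaled to the fragments of the library). PLC/PRF5 cells carried either the empty lentiviral vector pCDH-CMV or the same vector with the EGR1 coding sequence, each as a stable line, and the vector also expressed copGFP and a puromycin resistance gene in both groups. EGR1 is a zinc finger transcription factor induced early by growth signals. MHCC97H cells were either parental or labelled EGR1 knockout. The knockout lines of the study were grown from single clones after lentiCRISPR-v2 delivery. The study reports that these knockouts were verified by western blot and by sequencing of DNA. Which clone was used for RNA sequencing was not given in the sources used here. The vector, clonal growth and the guide cannot be told apart in this comparison. All groups were grown in DMEM with 10% serum at 37 °C and 5% CO2, and no low-oxygen treatment was described.

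HIF is a dimer of an oxygen-labile alpha subunit, HIF1A or EPAS1, and the constant partner ARNT. In the presence of oxygen the prolyl hydroxylases EGLN1, EGLN2 and EGLN3 mark the alpha subunit for capture by VHL and destruction in the proteasome, while the asparaginyl hydroxylase HIF1AN keeps it from binding its coactivators. When oxygen falls, the alpha subunit accumulates as protein and the dimer activates genes for pH control, collagen modification, mitophagy, angiogenic signals and its own feedback, EGLN3 among them. This control acts on protein, so the subunits' mRNA levels are not a measure of HIF activity, and CA9 is in common use as a tissue marker of hypoxia in solid tumours.

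The promoters of 8 members are shown because the HIF dimer binds a short core in DNA and the members were followed together. They are 250 bases before the first listed RefSeq start (GRCh38.p14), written 5′ to 3′ on the strand of the gene, with the letters ACGTG or GCGTG, on either strand, in capitals. The 3 HIF subunits and DDIT4, ADM and CITED2, which were called in opposite directions in the 2 EGR1 comparisons as deposited, were taken by the rule for named genes. CA9 and EGLN3 were added after their values were seen, as the members with the largest falls in PLC/PRF5.
HIF1A, chr14:61695263-61695512, plus strand: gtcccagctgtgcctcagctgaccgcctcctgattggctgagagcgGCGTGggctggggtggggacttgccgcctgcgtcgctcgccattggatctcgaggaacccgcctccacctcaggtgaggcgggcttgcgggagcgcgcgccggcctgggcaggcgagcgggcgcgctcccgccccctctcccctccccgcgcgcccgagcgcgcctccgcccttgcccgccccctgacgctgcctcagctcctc
EPAS1, chr2:46297157-46297406, plus strand: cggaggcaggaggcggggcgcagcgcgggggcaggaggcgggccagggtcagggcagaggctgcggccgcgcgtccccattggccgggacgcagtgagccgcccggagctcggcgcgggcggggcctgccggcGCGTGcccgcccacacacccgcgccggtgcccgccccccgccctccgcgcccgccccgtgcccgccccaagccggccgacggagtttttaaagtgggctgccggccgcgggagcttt
ARNT, chr1:150876600-150876849, minus strand: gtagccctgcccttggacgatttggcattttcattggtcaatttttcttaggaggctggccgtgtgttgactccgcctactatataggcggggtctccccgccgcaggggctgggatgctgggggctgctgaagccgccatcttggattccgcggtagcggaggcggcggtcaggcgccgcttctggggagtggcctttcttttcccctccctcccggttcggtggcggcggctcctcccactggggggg
DDIT4, chr10:72273674-72273923, plus strand: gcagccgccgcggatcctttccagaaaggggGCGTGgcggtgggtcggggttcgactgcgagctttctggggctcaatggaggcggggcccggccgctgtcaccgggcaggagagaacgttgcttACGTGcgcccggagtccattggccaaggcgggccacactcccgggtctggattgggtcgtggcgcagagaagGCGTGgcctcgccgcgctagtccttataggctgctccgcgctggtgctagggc
ADM, chr11:10304823-10305072, plus strand: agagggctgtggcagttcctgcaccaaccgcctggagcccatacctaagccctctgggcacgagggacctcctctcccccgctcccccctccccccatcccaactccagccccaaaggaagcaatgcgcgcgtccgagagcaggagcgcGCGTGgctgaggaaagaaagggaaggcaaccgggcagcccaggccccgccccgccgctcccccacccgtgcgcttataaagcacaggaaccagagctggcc
CITED2, chr6:139374649-139374898, minus strand: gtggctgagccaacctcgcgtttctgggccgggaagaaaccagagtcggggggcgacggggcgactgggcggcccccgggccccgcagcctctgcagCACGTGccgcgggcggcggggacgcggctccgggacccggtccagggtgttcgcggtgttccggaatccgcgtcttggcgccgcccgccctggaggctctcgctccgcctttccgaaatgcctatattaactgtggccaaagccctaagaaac
CA9, chr9:35673678-35673927, plus strand: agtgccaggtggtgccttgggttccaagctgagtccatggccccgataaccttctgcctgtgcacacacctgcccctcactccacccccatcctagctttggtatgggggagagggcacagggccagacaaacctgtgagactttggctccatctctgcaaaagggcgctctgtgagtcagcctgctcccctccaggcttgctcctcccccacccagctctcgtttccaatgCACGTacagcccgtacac
EGLN3, chr14:33951075-33951324, minus strand: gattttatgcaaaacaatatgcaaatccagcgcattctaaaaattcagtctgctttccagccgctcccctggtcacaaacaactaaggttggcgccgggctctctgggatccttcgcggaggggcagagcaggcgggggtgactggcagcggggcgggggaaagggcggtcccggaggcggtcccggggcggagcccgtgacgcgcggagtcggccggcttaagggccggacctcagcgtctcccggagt
ARNT and EGLN3 held neither core in this window, CA9 held 1 with its first base at position -18 from the start, and DDIT4 held 3. In CITED2 the palindrome read on both strands gave 2 overlapping matches. Of 32 members with a RefSeq promoter, 26 (81.2%) held ACGTG or GCGTG, against 43.1% of 27305 promoters of the same length. ACGTG stood in 59.4% of member promoters and 18.7% of all, and GCGTG in 46.9% and 31.9%. Letters of the EGR1 core, GTGGGCG or GGGGGCG on either strand, stood in 18 of the 32 (56.2%) and in 26.7% of all, and in DDIT4 a match to this core shared bases with a match to GCGTG. The median GC content of the member promoters was 68.4%, above the 58% of all promoters, and its part in these shares was not tested. The list was made of HIF targets and regulators, so its share of ACGTG or GCGTG is not a finding of these data. A match describes the letters and shows no binding. No promoter entry was matched for HILPDA, VEGFA, NDRG1, LOXL2, VHL and BNIP3L.

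FPKM keeps no record of read depth, so the counting error behind a value is unknown and a value of 0 is written as listed at 0. Fold changes are differences of log2(FPKM + 1), which understates the change of low genes, with standard errors (SE) and limma p-values adjusted by Benjamini-Hochberg over the genes that averaged 1 FPKM or more in the compared libraries, and a gene was called at an adjusted p under 0.05. The labels name biological replicates without describing separate cultures, so p-values measure only the spread between these libraries. A permutation test of 3 against 3 libraries cannot go below an exact p of 0.1. EGR1 itself was at 1.97, 1.43 and 2.03 FPKM in the vector libraries and at 56.3, 50.2 and 52.2 with EGR1. In MHCC97H it was at 20.2, 23.1 and 21.2 in the parental libraries and higher, at 35.2, 50.3 and 32.9, in those labelled knockout. The log2 difference of EGR1 there was 0.83 (SE 0.15, limma adjusted p = 0.00126). With values corrected for GC and length it was 0.42 and no longer called (limma adjusted p = 0.0609). A level of mRNA does not report the protein, which the study examined by western blot in its knockout clones. Every direction below for MHCC97H is therefore one of the libraries labelled knockout. Of 7 hepatocyte markers, 6 had a mean of at least 1 FPKM in both PLC/PRF5 groups, 2 in parental MHCC97H and 3 in the knockout-labelled group. Their summed FPKM was 1608 to 1764 with the vector and 2551 to 3482 with EGR1, where APOA1 rose from 3.18 to 113 FPKM, SERPINA1 by 0.89 on the log2 scale and ALB by 0.79. AFP, APOB and HNF4A were not called there (limma adjusted p = 0.0552, 0.0709 and 0.279), and TTR was not tested. The sum was 10.7 to 14.9 in parental MHCC97H and 23.8 to 27.6 in the knockout-labelled libraries, where ALB had means of 0.885 and 15.2 FPKM. AFP and TTR also had higher means in the knockout-labelled group. Those of APOA1, APOB, SERPINA1 and HNF4A were lower, with APOB at 1.27 and 0.150 FPKM and HNF4A at 9.64 and 7.91. Of 3 leukocyte markers, PTPRC and CD3E were below 0.1 in all 12 libraries, while CD68, a lysosomal protein also made by non-leukocytes, had group means of 37.6 with the vector, 35.6 with EGR1, 28.5 in parental MHCC97H and 53.8 in the knockout-labelled group (0.90, limma adjusted p = 5.76e-05, corrected 0.39). None of 4 fibroblast markers had a group mean of 1 FPKM. The part of these shifts in the members' changes was not tested. Across all genes, GC content of the longest transcript went with the fold change (Spearman rho -0.44 over 10829 genes with EGR1 and 0.75 over 10806 in the knockout-labelled comparison, across genes, which are not independent), so values corrected for GC and length were computed for every member. Called genes were higher rather than lower in 64.8% of cases with EGR1 as deposited, in 46.0% after quantile normalization and in 48.6% after correction. In MHCC97H the share was 52.5% as deposited and 41.5% after the libraries were brought to a common sum, which moved the median of all genes by -0.13. In bulk RNA, fewer cells of a kind and less RNA per cell cannot be told apart.

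The oxygen-labile subunits moved in opposite directions in MHCC97H, where HIF1A fell and EPAS1 rose in the libraries labelled knockout, while in PLC/PRF5 EPAS1 gave no call and the rise of HIF1A with EGR1 was lost after correction for GC and length. ARNT gave no call in any comparison. HIF1A, the alpha subunit found in most tissues (chr14:61695513-61748259, GRCh38, plus strand), was at 18.2, 23.0 and 22.2 FPKM in the vector libraries and at 31.1, 29.8 and 29.3 with EGR1. The groups did not overlap, and the difference was 0.50 on the log2 scale (SE 0.10, limma adjusted p = 0.00796), falling to 0.13 (adjusted p = 0.176) after correction. In MHCC97H, HIF1A was at 115, 99.3 and 81.9 FPKM in the parental libraries and at 38.4, 39.3 and 27.8 in the knockout-labelled ones. Every knockout-labelled library was below every parental one, by a log2 change of -1.46 (SE 0.16, adjusted p = 9.1e-05), or -0.82 (adjusted p = 0.000152) after correction. The HIF1A transcript has a GC content of 36.4%, where the members ranged from 34.4 to 63.3%. HIF1A overlaps the antisense genes HIF1A-AS1 and HIF1A-AS2, and the use of strand in counting was not given in the sources used here. In GENCODE 29, 22 of the 38 members overlap a gene on the opposite strand, CA9, DDIT4, ANGPTL4 and LOX among them, and reads of the partners could not be told apart without strand.

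EPAS1, the alpha subunit prominent in endothelium and in the hepatic control of erythropoietin and iron (chr2:46293667-46386703, GRCh38, plus strand), was at 118, 92.7 and 112 FPKM in the vector libraries and at 113, 109.7 and 114 with EGR1. These groups overlapped, and the difference of 0.07 (SE 0.10, limma adjusted p = 0.644) was within the spread. In MHCC97H, EPAS1 was at 15.5, 15.6 and 16.3 in the parental libraries and at 39.5, 34.1 and 35.2 in those labelled knockout. All knockout-labelled libraries lay above all parental ones, a log2 change of 1.15 (SE 0.09, adjusted p = 2.81e-05) that remained 0.93 (adjusted p = 2.47e-05) after correction. HIF1A was the more abundant of the alpha subunits in parental MHCC97H (98.6 ± 16.4 against 15.8 ± 0.460 FPKM, SD, n = 3), and EPAS1 in vector PLC/PRF5 (108 ± 13.1 against 21.1 ± 2.57). In the knockout-labelled libraries their means, 35.2 ± 6.37 for HIF1A and 36.3 ± 2.82 FPKM for EPAS1, were within each other's spread. These levels are as deposited and were not corrected for GC and length. ARNT, the common partner, ranged from 8.61 to 12.4 FPKM over the 12 libraries, with overlapping groups in both EGR1 comparisons (0.15, adjusted p = 0.341, and -0.10, adjusted p = 0.381).

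**Figure D1:**
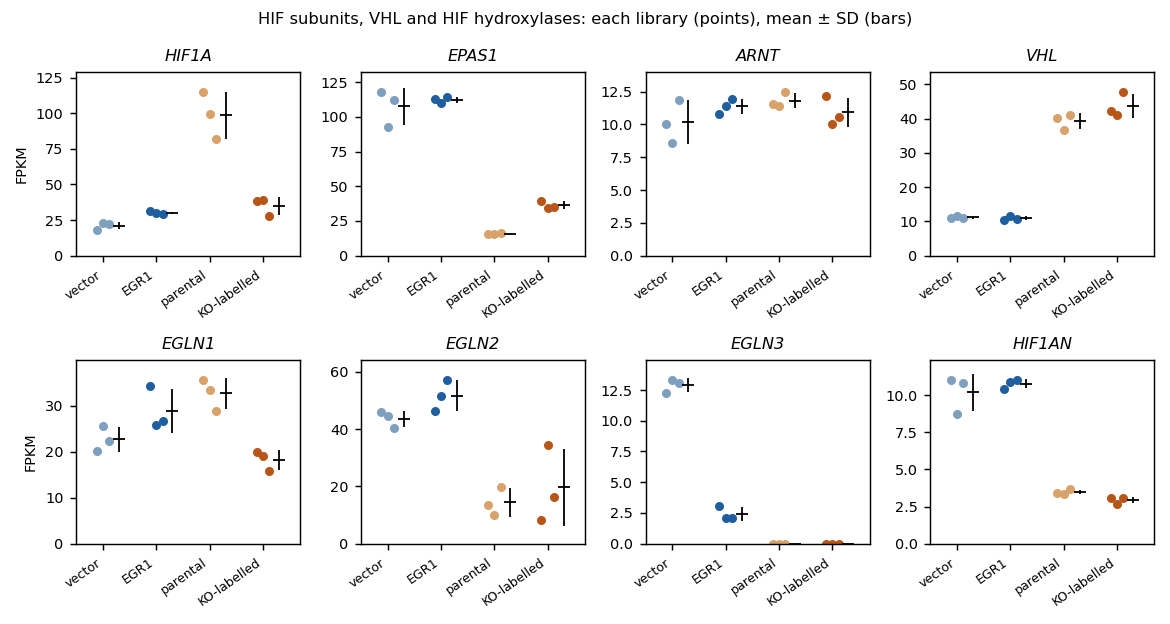
FPKM of the HIF subunits, VHL and the HIF hydroxylases in each library of the 4 groups (points, linear axis), with the group mean and SD (bars, n = 3). EGLN3 falls from 12.9 to 2.40 FPKM with EGR1 and is at or near 0 in MHCC97H, where HIF1A and EPAS1 move in opposite directions.

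Of the hydroxylases, EGLN3 fell with EGR1 and EGLN1 fell in the libraries labelled knockout, while the calls of EGLN2 and HIF1AN depended on the scaling or correction. VHL gave no call in either EGR1 comparison. EGLN3, the prolyl hydroxylase most strongly induced by HIF itself, was at 12.2, 13.3 and 13.1 FPKM in the vector libraries and at 3.04, 2.07 and 2.08 with EGR1. The groups lay far apart, with a log2 change of -2.04 (SE 0.12, limma adjusted p = 2.56e-05) that was the same after correction. In MHCC97H it was listed at 0 in 5 of 6 libraries and at 0.00873 FPKM in parental replicate 3, so it was not tested there. EGLN1, the main oxygen sensor of the family, was at 20.2, 25.7 and 22.3 FPKM with the vector and at 34.3, 25.7 and 26.6 with EGR1. The closest libraries of the 2 groups were level at this precision, and the difference of 0.33 (SE 0.13, adjusted p = 0.0876) was not called, although it was without vector replicate 2 (0.41, adjusted p = 0.0472). In MHCC97H, EGLN1 went from 35.5, 33.5 and 28.9 FPKM to 19.8, 18.9 and 15.8. Here the groups were separate, and the log2 change was -0.81 (SE 0.12, adjusted p = 0.000366), or -0.50 (adjusted p = 0.000783) after correction.

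HIF1AN, the asparaginyl hydroxylase, was at 11.0, 8.76 and 10.8 FPKM with the vector and at 10.4, 10.9 and 11.0 with EGR1 (0.08, limma adjusted p = 0.576), and its difference was negative after quantile normalization (-0.04) and correction (-0.13). In MHCC97H it was at 3.41, 3.36 and 3.65 in the parental libraries and at 3.05, 2.69 and 3.05 in the knockout-labelled ones, groups that did not overlap but were not called (-0.19, adjusted p = 0.136). It was called lower with the libraries at a common sum (-0.31, adjusted p = 0.0322) and was at 0.04 after correction. VHL, the subunit that recognises hydroxylated HIF, was at 10.9, 11.7 and 11.0 FPKM with the vector and at 10.5, 11.6 and 10.7 with EGR1, a difference of -0.03 (adjusted p = 0.826). It was at 40.1, 36.8 and 41.0 in parental MHCC97H and at 42.2, 41.0 and 47.6 in the knockout-labelled libraries. That difference of 0.15 (adjusted p = 0.182) was not called and was slightly negative under same-total scaling and quantile normalization.

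EGLN2, the prolyl hydroxylase that is not itself induced by hypoxia, overlaps the readthrough gene RAB4B-EGLN2 on the same strand, and the split of fragments between the 2 entries differed between libraries. EGLN2 alone was at 45.9, 44.4 and 40.3 FPKM with the vector, at 46.2, 51.6 and 57.0 with EGR1, at 13.6, 9.83 and 19.8 in parental MHCC97H and at 8.19, 34.5 and 16.4 in the knockout-labelled libraries. The last group spread over a wider range than any other, and EGLN2 alone gave no call in the EGR1 comparison (0.24, limma adjusted p = 0.104, but 0.31 and 0.0382 without EGR1 replicate 1, and 0.25 and 0.035 after correction) or the knockout-labelled one (0.26, SE 0.42, adjusted p = 0.596). RAB4B-EGLN2 was listed at 0 in 5 libraries, at 1.51 FPKM in vector replicate 2, at 4.59 and 5.28 in EGR1 replicates 2 and 3, at 8.44 in parental replicate 2, and at 44.8, 18.0 and 37.1 in the knockout-labelled libraries. In the knockout-labelled libraries the entry of EGLN2 was lowest where that of RAB4B-EGLN2 was highest, and the reverse. Their sum, chosen after the data were seen, was 53.0, 52.5 and 53.6 FPKM in the knockout-labelled libraries and 13.6, 18.3 and 19.8 in the parental ones. The summed values were apart by 1.58 on the log2 scale (SE 0.13, adjusted p = 3.11e-05), and by 1.18 (adjusted p = 7.81e-05) after correction. In PLC/PRF5 the sum was 45.9, 46.0 and 40.3 with the vector and 46.2, 56.2 and 62.3 with EGR1, a difference of 0.30 (SE 0.12, adjusted p = 0.0822) that was called after correction (0.32, adjusted p = 0.0331). How fragments of the shared stretch were assigned was not given in the sources used here, so a rise of EGLN2 itself and a rise of the readthrough transcript cannot be told apart.

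**Figure D2:**
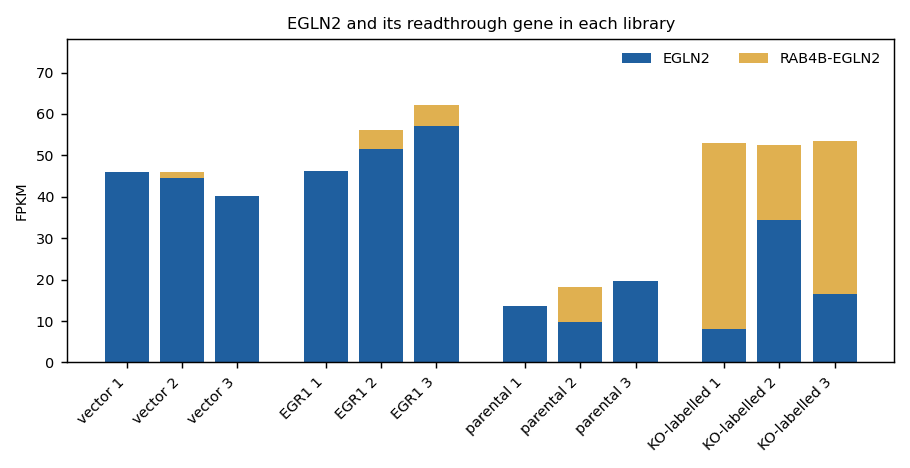
Stacked FPKM of EGLN2 and the readthrough gene RAB4B-EGLN2 in each of the 12 libraries (linear axis from 0). The summed height is 52.5 to 53.6 in the knockout-labelled libraries whereas the EGLN2 part varies from 8.19 to 34.5, and the sum is at most 19.8 in the parental libraries.

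With EGR1 in PLC/PRF5, most of the measured hypoxia genes fell, led by CA9, EGLN3, DDIT4, ANGPTL4 and NDRG1. Of 35 members tested, all but 10 were called, where 29.6% of the 11671 genes tested were called. The number lower was 22 (62.9%), against 10.4% of genes, and 3 were higher (8.57%), against 19.2%. A change of at least 2-fold was called for 6, against 1.77% of genes. The median log2 change of the members was -0.46 and that of all genes 0.09. As the members were chosen with earlier results of these data known, these shares are a description. After correction 22 members were lower, against 17.4% of genes, and 2 higher, against 16.4%. The groups did not overlap for 29 of the 35, against 47.7% of all genes. RORA, CA12 and PPFIA4 were too low to test. LOX passed the filter through the vector group only and had to differ. It is counted among the lower members, the 2-fold changes, the groups that did not overlap and the list of all fits that follows. The 16 members lower in all 16 fits (the one reported and 15 alternatives) were EGLN3, CITED2, BHLHE40, MXI1, ADM, ANGPTL4, CA9, P4HA1, PLOD2, LOX, AK4, DDIT4, NDRG1, ANKRD37, ERO1A and HILPDA. Without the filter on low values STC2, LOXL2, BNIP3L, FAM162A, CCNG2 and WSB1 were not called (adjusted p from 0.0514 to 0.108), nor were LOXL2 and WSB1 after quantile normalization (0.171 and 0.0786). None of the 3 higher members was called in all fits, and 1 rather than 3 was called without vector replicate 1, EGR1 replicate 2 or EGR1 replicate 3.

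CA9, the membrane carbonic anhydrase that keeps cytosol alkaline in acidic tumours (chr9:35673856-35681159, GRCh38), was at 38.5, 47.4 and 38.3 FPKM in the vector libraries and at 3.80, 5.53 and 5.65 with EGR1. The vector libraries were all far above those with EGR1, and the log2 change was -2.83 (SE 0.14, limma adjusted p = 9.7e-06). CA12, its partner in pH control, was under 1 FPKM in all 6 libraries. DDIT4, the stress gene that restrains mTORC1 signalling, went from 151, 157 and 154 FPKM to 40.9, 53.1 and 57.3, a log2 change of -1.61 (SE 0.12, adjusted p = 9.13e-05). NDRG1, a stress gene linked to differentiation and growth arrest, went from 80.4, 73.5 and 78.7 to 25.6, 30.0 and 30.2. Its groups were as clearly apart, with a log2 change of -1.41 (SE 0.09, adjusted p = 4.43e-05). CCNG2, an atypical cyclin of arrested cells, fell by 0.46 on the log2 scale (adjusted p = 0.0466), a call lost without any of 5 libraries (vector replicates 2 and 3 and each EGR1 replicate, adjusted p up to 0.142).

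Of the secreted signals, ANGPTL4, an inhibitor of lipoprotein lipase, was at 22.9, 22.7 and 19.9 FPKM with the vector and at 7.67, 7.49 and 6.47 with EGR1. The groups were separate, with a log2 change of -1.48 (SE 0.10, limma adjusted p = 5.2e-05). ADM, a vasodilator peptide, fell by 0.86 on the log2 scale (adjusted p = 0.00148), from 30.8 ± 4.45 to 16.4 ± 1.39 FPKM (SD, n = 3). STC2, a stanniocalcin, fell by 0.43 (adjusted p = 0.0307), and its call was lost without any vector library, with adjusted p from 0.0597 to 0.0892. VEGFA, the vascular growth factor, was at 19.1 ± 0.797 with the vector and 20.8 ± 0.702 FPKM with EGR1 and gave no call (0.12, adjusted p = 0.289, and -0.02 after correction).

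Among collagen-modifying enzymes, LOX, the secreted oxidase that crosslinks collagen, went from 3.23, 3.90 and 3.79 FPKM to 0.829, 0.818 and 0.762. It was measured above the minimum of 1 FPKM with the vector only, so these values are a description. The prolyl hydroxylase P4HA1 fell by 0.78 on the log2 scale (adjusted p = 0.00133), and the lysyl hydroxylases PLOD2 by 0.64 (limma adjusted p = 0.00795) and PLOD1 by 0.43 (adjusted p = 0.0132). P4HA2 had a difference of -0.19 and was not called (adjusted p = 0.167), but was called after quantile normalization (-0.29, adjusted p = 0.043). LOXL2, another collagen oxidase, was higher by 0.40 (adjusted p = 0.0321), from 2.32 ± 0.326 to 3.39 ± 0.436 FPKM. The call of PLOD1 was lost without vector replicate 1 (adjusted p = 0.0513) or 3 (0.0531), and that of LOXL2 without vector replicate 1 (0.0712) or 2 (0.0631) or EGR1 replicate 2 (0.126) or 3 (0.0731).

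All 3 feedback genes tested fell with EGR1, as did 3 of 4 other targets. CITED2, which competes with HIF for its coactivator, fell by 0.89 on the log2 scale (limma adjusted p = 0.000179), from 58.4 ± 1.43 to 31.1 ± 1.10 FPKM (SD, n = 3). BHLHE40, a transcriptional repressor, fell by 0.61 (adjusted p = 0.00165). MXI1, an antagonist of MYC activity, fell by 0.49 (adjusted p = 0.00887), from 7.74, 7.90 and 8.39 FPKM to 6.13, 4.85 and 5.28. The lipid droplet protein HILPDA fell by 0.98 (adjusted p = 0.00117), ANKRD37 by 0.82 (adjusted p = 0.00331) and the disulfide oxidase ERO1A by 0.69 (adjusted p = 0.00185). WSB1, a substrate receptor of a ubiquitin ligase, was higher by 0.40 (adjusted p = 0.0263) and by 0.20 (adjusted p = 0.0794) after correction. Its call was also lost without vector replicate 1 or 3 or any EGR1 library, with adjusted p from 0.0534 to 0.0795.

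Of the mitochondrial and mitophagy genes, AK4, a mitochondrial adenylate kinase, fell by 0.48 on the log2 scale (limma adjusted p = 0.00388). The mitophagy receptor BNIP3L fell by 0.53 (adjusted p = 0.0171) and FAM162A by 0.31 (adjusted p = 0.0421), while the related receptor BNIP3 had a difference of -0.15 and gave no call (adjusted p = 0.321). Of the histone demethylases, KDM4B fell by 0.37 (adjusted p = 0.0219), and KDM3A was not called (0.10 as deposited, -0.15 after correction). The call of BNIP3L was lost without EGR1 replicate 2 (adjusted p = 0.0542) or 3 (0.06). That of FAM162A was lost without vector replicate 2 or 3 or any EGR1 library (0.0675 to 0.118), and that of KDM4B without vector replicate 1 or 3 or EGR1 replicate 2 or 3 (0.0605 to 0.0885).

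**Figure D3:**
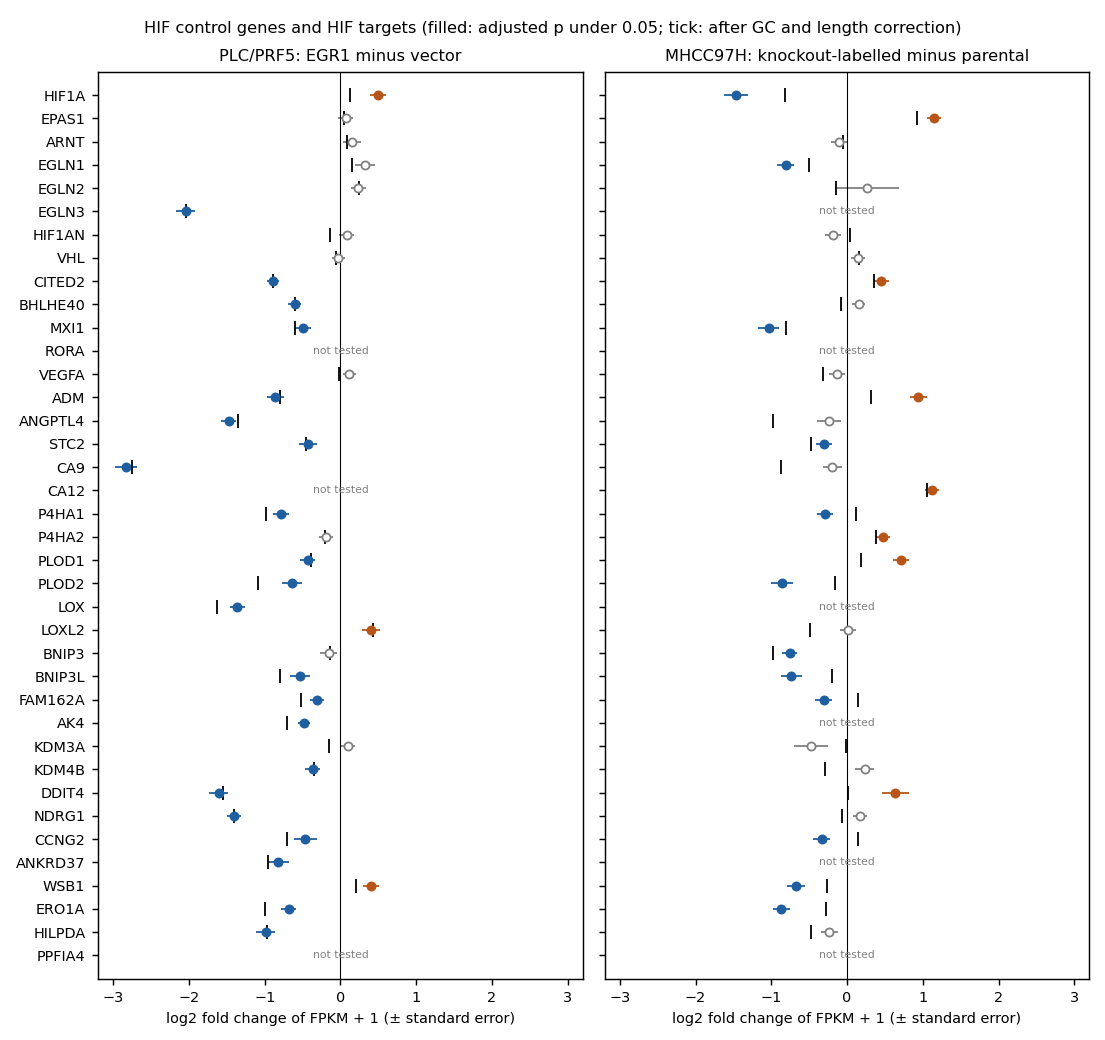
Log2 change of each member in FPKM + 1 with its SE for EGR1 minus vector and for knockout-labelled minus parental, with filled points for an adjusted p under 0.05 and black ticks for the value corrected for GC and length. Each horizontal axis is log2. The points of the left panel lie mostly left of 0 and reach -2.83 at CA9, while those of the right panel lie on both sides, from -1.46 at HIF1A to 1.15 at EPAS1.

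In the MHCC97H libraries labelled knockout, the members split, with EPAS1, CA12 and ADM among those higher and HIF1A, MXI1, ERO1A and EGLN1 among those lower. Of 32 members tested, 7 were higher (21.9%), against 34.8% of the 11577 genes tested, and 12 lower (37.5%), against 31.5%. In all, 66.3% of genes were called in this contrast. A change of at least 2-fold was called for 4 members, HIF1A, EPAS1, CA12 and MXI1, against 8.89% of genes. The groups did not overlap for 20 members, against 71.8% of all genes. After correction 5 were higher, against 24.5%, and 12 lower, against 23%. With the libraries at a common sum 7 members were higher, against 3153 of 11615 genes, and 16 lower, against 4452. EGLN3, RORA, LOX, AK4, ANKRD37 and PPFIA4 were not tested. The members called in all 16 fits were EPAS1, CITED2, ADM, CA12 and P4HA2 on the higher side and HIF1A, EGLN1, MXI1, BNIP3 and ERO1A on the lower side.

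CA12, a membrane carbonic anhydrase, was at 72.1, 76.1 and 74.7 FPKM in the parental libraries and at 183, 151 and 155 in those labelled knockout. No library of either group came near the other group, and the log2 change was 1.12 (SE 0.09, limma adjusted p = 3.73e-05). CA9 was low in the same cells, at 2.75, 3.32 and 3.51 in the parental libraries and 2.93, 2.36 and 2.71 in the knockout-labelled ones. These overlapped and were not called (-0.19, adjusted p = 0.181), although the corrected value was -0.88 (adjusted p = 0.000265). MXI1 went from 12.9, 13.3 and 12.2 FPKM to 7.15, 5.49 and 4.73. Its groups were separate, with a log2 change of -1.04 (SE 0.13, adjusted p = 0.000225). ADM rose by 0.94 (adjusted p = 0.00013, corrected 0.31), CITED2 by 0.45 (adjusted p = 0.00345) and P4HA2 by 0.47 (adjusted p = 0.00212).

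BNIP3 fell by 0.76 on the log2 scale (limma adjusted p = 0.000312) and ERO1A by 0.87 (adjusted p = 0.000288, corrected -0.28). BNIP3L fell by 0.74, PLOD2 by 0.86 and WSB1 by 0.68, and PLOD1 rose by 0.72, and none of these 4 was called after correction, with corrected values of -0.20, -0.16, -0.26 and 0.18. DDIT4 was at 17.6, 19.9 and 29.1 FPKM in the parental libraries and at 37.3, 28.1 and 38.5 in the knockout-labelled ones. The groups overlapped, and its call at 0.64 (SE 0.18, adjusted p = 0.0125) was lost without knockout-labelled replicate 1 (adjusted p = 0.0545) and after correction (0.02, adjusted p = 0.941). P4HA1, FAM162A and CCNG2 were called lower as deposited (-0.29, -0.31 and -0.34), but their corrected differences were positive (0.11, 0.14 and 0.15) and not called. STC2 was lower in both (-0.31, adjusted p = 0.0254, and -0.48 corrected).

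Calls of 4 of these members depended on several single libraries. P4HA1 was not called without parental replicate 1 or 2 or knockout-labelled replicate 2 or 3 (limma adjusted p from 0.0539 to 0.123), nor CCNG2 without the same 4 libraries (0.0519 to 0.0855) or after quantile normalization (0.0992). P4HA1 was also not called without the filter (0.0513). FAM162A was not called without parental replicate 2 or 3 or knockout-labelled replicate 1 or 3 (0.0762 to 0.0922), nor STC2 without parental replicate 2 or knockout-labelled replicate 2 or 3 (0.0631 to 0.124). The members below the threshold as deposited were ANGPTL4 (-0.24), LOXL2 (0.01), KDM4B (0.23), HILPDA (-0.24), VEGFA (-0.13), BHLHE40 (0.15), NDRG1 (0.17) and KDM3A (-0.48), besides CA9, ARNT, EGLN2, HIF1AN and VHL. HILPDA was called without parental replicate 1 (adjusted p = 0.0157), with a common sum (0.0155) and after quantile normalization (0.0426), and VEGFA with a common sum (-0.27, adjusted p = 0.0484). KDM3A was called lower without parental replicate 3 (0.0462), with a common sum (0.0485) and in the fit of all 12 libraries (0.0453), and its corrected value was -0.02. After correction ANGPTL4 (-0.97), LOXL2 (-0.49), KDM4B (-0.29), HILPDA (-0.48) and VEGFA (-0.31) were called lower. KDM4B was called in the opposite direction after quantile normalization (0.32, adjusted p = 0.0368). NDRG1 was at 31.3, 36.2 and 36.4 FPKM in the parental and at 39.4, 36.2 and 41.5 in the knockout-labelled libraries, and ANGPTL4 was at 2.28, 3.72 and 2.66 and at 2.63, 1.90 and 2.25. Both overlapped between the groups.

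**Figure D4:**
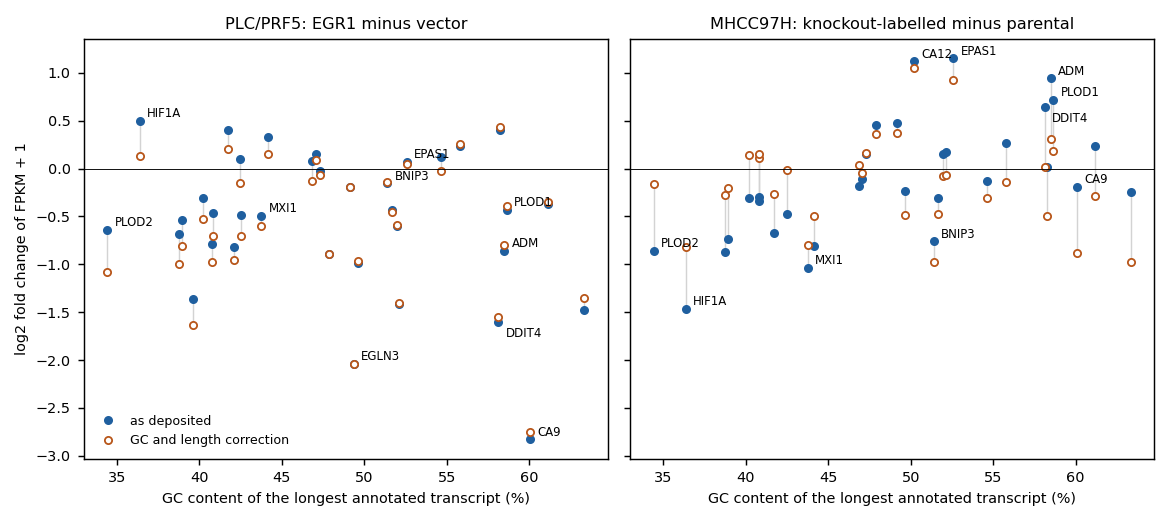
Transcript GC content of each member (percent, longest GENCODE 29 transcript) against its log2 change in the 2 EGR1 comparisons, as deposited and after correction for GC and length. As deposited, members of higher GC lie higher in the knockout-labelled comparison (Spearman rho 0.69 over 32 members, a description) and show little relation with EGR1 (-0.13 over 35).

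Set side by side, the 2 EGR1 comparisons, which share no library, tested 31 members in both. As deposited, 8 members were lower in both (25.8%, against 0.984% of 10369 genes), and 4, CITED2, ADM, PLOD1 and DDIT4, were lower with EGR1 and higher in the knockout-labelled libraries (12.9%, against 6.25%). HIF1A and WSB1 went the other way (6.45%, against 11.7%), and 6 were called in neither (19.4%, against 25.6%). After correction 7 were lower in both (22.6%, against 3.01% of 9841 genes), but only MXI1, STC2 and ERO1A were in both lists. P4HA1, PLOD2, BNIP3L, FAM162A and CCNG2 were lower in both as deposited only, and ANGPTL4, CA9, KDM4B and HILPDA after correction only. CITED2 and ADM stayed lower with EGR1 and higher in the knockout-labelled libraries (6.45%, against 6.01%), and LOXL2 was the 1 member higher with EGR1 and lower there (3.23%, against 5.92%). As deposited, members were lower more often than genes in each comparison alone (62.9% against 10.4% with EGR1, 37.5% against 31.5% in the knockout-labelled one). A larger share lower in both than among genes is therefore not a separate result. GC content went with the fold change of all genes in opposite directions (Spearman rho -0.44 and 0.75). Its part in these shares was not tested. The contrasts are of different kinds in different cell lines, and the difference between them was not tested.

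**Figure D5:**
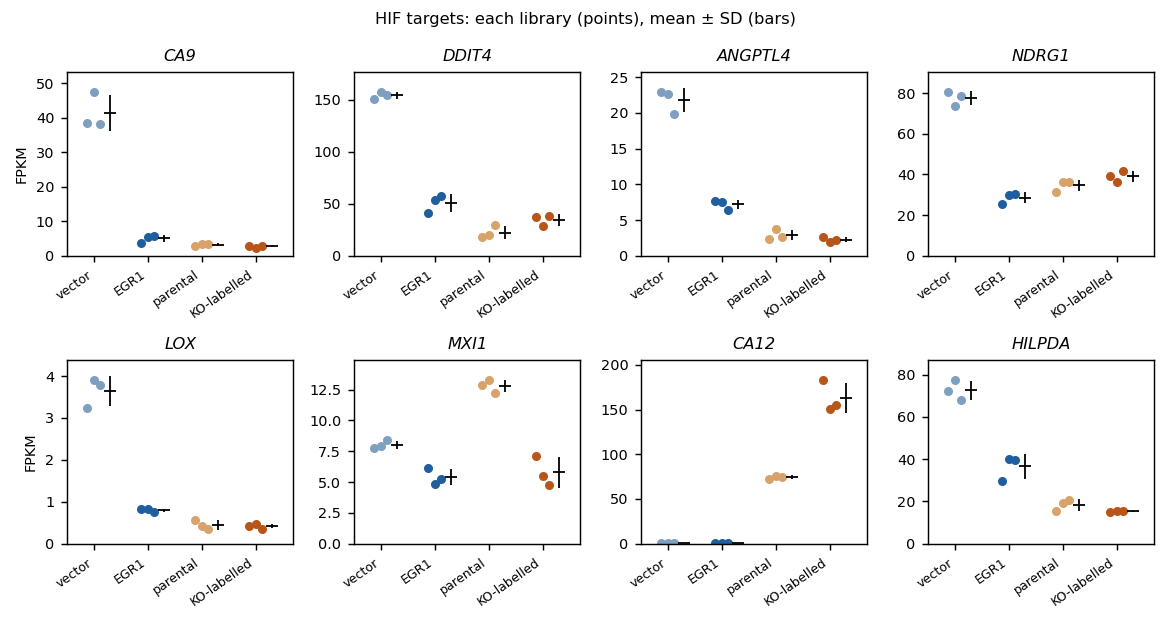
FPKM of 8 HIF targets in each library of the 4 groups (points, linear axis), with the group mean and SD (bars, n = 3). CA9, DDIT4, ANGPTL4, NDRG1, LOX and HILPDA are highest in the vector PLC/PRF5 libraries and lower with EGR1, whereas CA12 is under 1 FPKM in PLC/PRF5 and at 72.1 or more in MHCC97H.

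The cell lines themselves differed in most members, as they did in most genes. Vector PLC/PRF5 cells had the higher EPAS1, EGLN2, EGLN3, HIF1AN and most targets, and parental MHCC97H cells the higher HIF1A, VHL, CA12 and LOXL2. Of 36 members tested between the 2 control groups, which also serve as controls above, all but 3 were called, where 79.8% of 12046 genes were called. The number lower in MHCC97H was 23 (63.9%), against 40.9% of genes, and 10 were higher (27.8%), against 38.8%. After correction 8 were higher, against 39.3%, and 22 lower, against 41.6%. A change of at least 2-fold was called for 22, against 36.8%, and the groups did not overlap for 32, against 81% of genes. EGLN3, CA12, LOX, AK4 and ANKRD37 passed the filter through 1 group only and had to differ. HIF1A differed by 2.17 on the log2 scale (limma adjusted p = 9.32e-07), EPAS1 by -2.69 (adjusted p = 3.8e-08) and VHL by 1.72 (adjusted p = 1.68e-07). CA9 differed by -3.33 (adjusted p = 2.79e-08), DDIT4 by -2.77 (adjusted p = 5.3e-07), STC2 by -2.66 (adjusted p = 1.82e-08), EGLN2 by -1.58 (adjusted p = 0.000102) and HIF1AN by -1.32 (adjusted p = 5.82e-06). ARNT (0.20), BHLHE40 (-0.01) and CCNG2 (0.27) were not called as deposited. BHLHE40 was called higher after quantile normalization (0.27, adjusted p = 0.0196) and correction (0.21, adjusted p = 0.00415), and CCNG2 with a common sum (0.35, adjusted p = 0.0471). After correction EGLN1 (0.12, from 0.51), BNIP3 (-0.21, from -0.44), BNIP3L (0.02, from 0.41) and KDM3A (-0.05, from 0.45) were no longer called. Line, vector and handling cannot be told apart in this contrast.

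Over the 4 groups, 18 of the 38 members had their highest mean in vector PLC/PRF5, 5 with EGR1, 9 in parental MHCC97H and 6 in the knockout-labelled group. The lowest mean fell in the knockout-labelled group for 15 members and in the EGR1 group for 9. These counts include members under 1 FPKM, such as EGLN3 with means of 0.00291 in the parental and 0 in the knockout-labelled group. Shares over all genes were not computed, so the counts are a description.

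Other genes of the pathway were taken from 2 lists, of 20 regulators and 24 targets. With EGR1, 3 of 18 regulators tested rose (16.7%, against 19.2% of genes) and 0 fell (against 10.4%). The largest rises were HSP90AA1 (0.58, limma adjusted p = 0.0167), a chaperone of HIF1A, and CUL2 (0.49, adjusted p = 0.00957), the cullin scaffold that carries VHL. Of 20 targets tested, 4 rose (20.0%) and 6 fell (30.0%), led by IGFBP1 (1.81, adjusted p = 2.76e-05), an insulin-like growth factor binding protein, and the haem oxygenase HMOX1 (1.20, adjusted p = 6.98e-05) upward, and by the lipid droplet gene PLIN2 (-0.74, adjusted p = 0.00142) and the cytokine MIF (-0.64, adjusted p = 0.00422) downward. In the knockout-labelled libraries 5 of 19 regulators rose (26.3%, against 34.8% of genes) and 7 fell (36.8%, against 31.5%), with OS9 at 1.09 (adjusted p = 3.73e-05) and COMMD1 at 0.57 (adjusted p = 0.00805), and CUL2 at -0.94 (adjusted p = 0.000431). The ARNT relative ARNT2, at 2.86 FPKM in the parental and 0.255 in the knockout-labelled group, passed the filter through the parental group only and had to differ. Of 17 targets there, 9 rose (52.9%) and 5 fell (29.4%). HMOX1 rose by 1.41 (adjusted p = 3.73e-05) and SLC6A8, a creatine transporter, by 0.62 (corrected 0.02, not called), while EDN1, which encodes endothelin, fell by 0.91 on the log2 scale (adjusted p = 0.000125) and INSIG2 by 0.79 (corrected -0.14, not called).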

How the data were processed

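Poly(A)-selected RNA of PLC/PRF5 and MHCC97H cells was sequenced on a NovaSeq after treatment of the libraries with a duplex-specific nuclease. The authors deposited 1 table of FPKM values for the 12 libraries. The submitters' processing notes name StringTie and the build hg38; the aligner, versions, annotation and use of strand were not given in the sources used here. FPKM carries no depth, and counting error is therefore unknown.

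The members and lists were chosen with earlier results of these data known. HIF subunits, hydroxylases, VHL and any other member called with at least a 2-fold change in an EGR1 comparison were described by library, other members by group, and from the lists of other pathway genes the 2 largest rises and falls were named. Groups came from the sample labels. Genes that averaged 1 FPKM or more over the 6 libraries of a comparison were fitted as log2(FPKM + 1) with limma 3.58.1 (R 4.3.3, intensity trend, 2-sided), with Benjamini-Hochberg adjustment over all genes tested and a threshold of 0.05. The fit was tested on simulated data with independent noise for each gene, no GC trend and no shift shared within a library. That test therefore does not cover the changes that went with GC content here. Alternatives were a pseudocount of 0.1, no filter, scaling to the same total, quantile normalization, no trend, a fit over all 12 libraries, a replicate block, a correction for GC content and length (a spline of 5 degrees of freedom on the longest GENCODE 29 transcript, matched for 19458 names), a 2-fold minimum and leaving out each library. The sum of EGLN2 and RAB4B-EGLN2 was added after the data were seen. Tables and plots were made with Python 3.11.15, pandas 2.3.3, scipy 1.17.1 and matplotlib 3.10.9, and promoter sequences came from RefSeq (GRCh38.p14).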

Additional observations from a re-analysis of the deposited data

How the results depend on the processing

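Over 15 alternatives per comparison and the summed EGLN2 entries, 1554 values of single members were computed, of which 1386 held both sign and call. A further 50 changed sign, and some of these also lost or gained a call. Of the values that kept their sign, 89 were no longer called and 29 became called. With EGR1, the count of higher members went from 3 to 1 without the filter on low values, after quantile normalization and with the correction for GC and length joined to the replicate block, and to 0 with a 2-fold minimum, and it was 1 to 3 when 1 library was left out. The count of lower members went from 22 to 6 with the 2-fold minimum and was 17 to 20 with 1 library left out. In the knockout-labelled comparison the counts were 2 higher and 2 lower with the 2-fold minimum, and 6 to 7 higher and 8 to 12 lower with 1 library left out. Parental minus vector gave 5 higher with the 2-fold minimum, and 8 to 11 higher and 23 lower with 1 library left out. With the replicate block the members higher and lower were 2 and 21 with EGR1, 7 and 13 in the knockout-labelled comparison, and 10 and 23 between the lines. Under the block LOXL2 and FAM162A were not called with EGR1 (limma adjusted p = 0.0514 and 0.063), and KDM3A was called lower in the knockout-labelled comparison (adjusted p = 0.0081). Same-numbered libraries did not deviate together throughout (correlations of -0.132, 0.136 and -0.0758 in PLC/PRF5 and 0.0317, 0.0302 and 0.467 in MHCC97H), so the numbers were not read as pairs.

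Sign changes with EGR1 were EPAS1 at -0.034, HIF1AN at -0.014 and VHL at 0.0020 without vector replicate 2 (ranges with 1 library left out of -0.034 to 0.14, -0.014 to 0.13 and -0.069 to 0.0020), HIF1AN at -0.037 and KDM3A at -0.026 after quantile normalization, and HIF1AN at -0.13, VEGFA at -0.024 and KDM3A at -0.15 after correction with or without the block. In the knockout-labelled comparison the corrected values, with or without the block, were -0.14 for EGLN2, 0.041 for HIF1AN, -0.081 for BHLHE40, 0.11 for P4HA1, -0.49 for LOXL2, 0.14 for FAM162A, -0.29 for KDM4B, -0.065 for NDRG1 and 0.15 for CCNG2. Scaling to the same total gave VHL -0.0030 and LOXL2 -0.12, and quantile normalization gave VHL -0.076, BHLHE40 -0.13 and NDRG1 -0.039. EGLN2 was at -0.23 without knockout-labelled replicate 2 and ranged up to 0.74, and LOXL2 ranged from -0.044 to 0.090 without single libraries. Between the lines, BHLHE40 was at 0.10 with the same total, 0.27 after quantile normalization, 0.21 after correction and -0.063 to 0.019 without single libraries, and the corrected values of KDM3A and CCNG2 were -0.048 and -0.16. BNIP3L lost its call between the lines without vector replicate 1 or 3 or parental replicate 1 or 2 (limma adjusted p from 0.118 to 0.15), and KDM3A without vector or parental replicates 1 or 2 (0.0542 to 0.0829). ARNT and CCNG2 were called there without vector replicate 3 (adjusted p = 0.0425 and 0.0215). Apart from changes that follow from a stricter minimum or fewer libraries, the cause was not tested. Without depth, differences among members near 1 FPKM, such as CA12 in PLC/PRF5, cannot be judged against counting error.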
